A study of Mus musculus with 6 samples.

Results

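The 10 immediate early genes Fos, Fosb, Jun, Junb, Egr1, Egr2, Atf3, Nr4a1, Nr4a2 and Dusp1 were followed through adrenal gland RNA of wild-type (WT) and Armc5 knockout (KO) mice. They were found by gene name in a table of 59699 loci, 53103 of which carry a gene name. The names matched 11 loci, because Junb is split into a main locus and a second, short locus with few reads. Both groups, 3 WT and 3 KO samples, came from adrenal glands of females at 30 weeks of age with the strain background 129 sv X CD1, and the KO genotype is written Armc5(-/-). The labels do not state which part of Armc5 is deleted, or whether each sample is 1 animal, so the p-values below measure the spread between these samples. They also give no time of day, handling or delay at tissue collection.

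Immediate early genes are switched on within minutes of a stimulus, from transcription factors that are already present in the cell, and their RNAs are short-lived. Most encode transcription factors that then act on slower genes: Fos and Jun proteins pair as the factor AP-1, EGR proteins are zinc finger factors, and NR4A proteins are orphan nuclear receptors. In the adrenal gland they are known to respond to the pituitary hormone ACTH, to nerve input of the medulla and to stress, and NR4A factors bind promoters of steroid-making enzymes. The time between disturbing an animal and freezing its tissue is known to move them in many organs.

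Libraries held 70547288 to 130573434 counts. Levels are given as CPM, the counts scaled to a common library size with TMM factors. Armc5 ranged from 25.3 to 27.8 CPM over WT and from 3.53 to 3.66 CPM over KO. A list of hepatocyte genes summed to 3122 CPM in KO replicate 3, where Apoa1 was at 34.5 CPM, and to 15.3 to 56.0 CPM in every other library. EdgeR called none of its 5 tested genes (Fgb was not tested). DESeq2 called none either, but it gave Apoa1 no adjusted p, so for that gene this is no result. Without KO replicate 3 edgeR called none of the 10 immediate early genes. Their median log2 fold change was -0.77 without it, and from -0.77 to -0.37 over the 6 fits that each left out 1 library. Markers of the adrenal cortex and of chromaffin cells were present in every library.

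With TMM scaling, WT replicate 1 stood above all other libraries for 9 of the 10 genes, every member but Egr2. Scaled to total counts, KO replicate 3 was above WT replicate 1 for Fos (179 against 146 CPM) and Nr4a2 (142 against 119 CPM). With equal counts of Rn7sk, the 7SK RNA, KO replicate 3 was again above WT replicate 1 for both genes. KO replicate 1, also with TMM scaling, was the lowest library for 6 genes and the lowest KO library for 9. Scaled to total counts, Egr1 was instead lowest in WT replicate 3 (173 CPM, against 183 CPM in KO replicate 1). Over loci of at least 10 CPM, WT replicate 1 was the highest library for 34.5% and KO replicate 1 the lowest for 15.1%. KO replicate 1 was the lowest KO library for 27.6% of them. The mean of the 10 genes, each centred on its own 6-library mean of log2(CPM + 0.5), was 0.81 in WT replicate 1, 0.05 in WT replicate 2, -0.16 in WT replicate 3, -0.59 in KO replicate 1, -0.17 in KO replicate 2 and 0.06 in KO replicate 3. KO replicate 3 thus lay above WT replicates 2 and 3 in this mean, and the 2 genotypes overlapped.

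**Figure D1:**
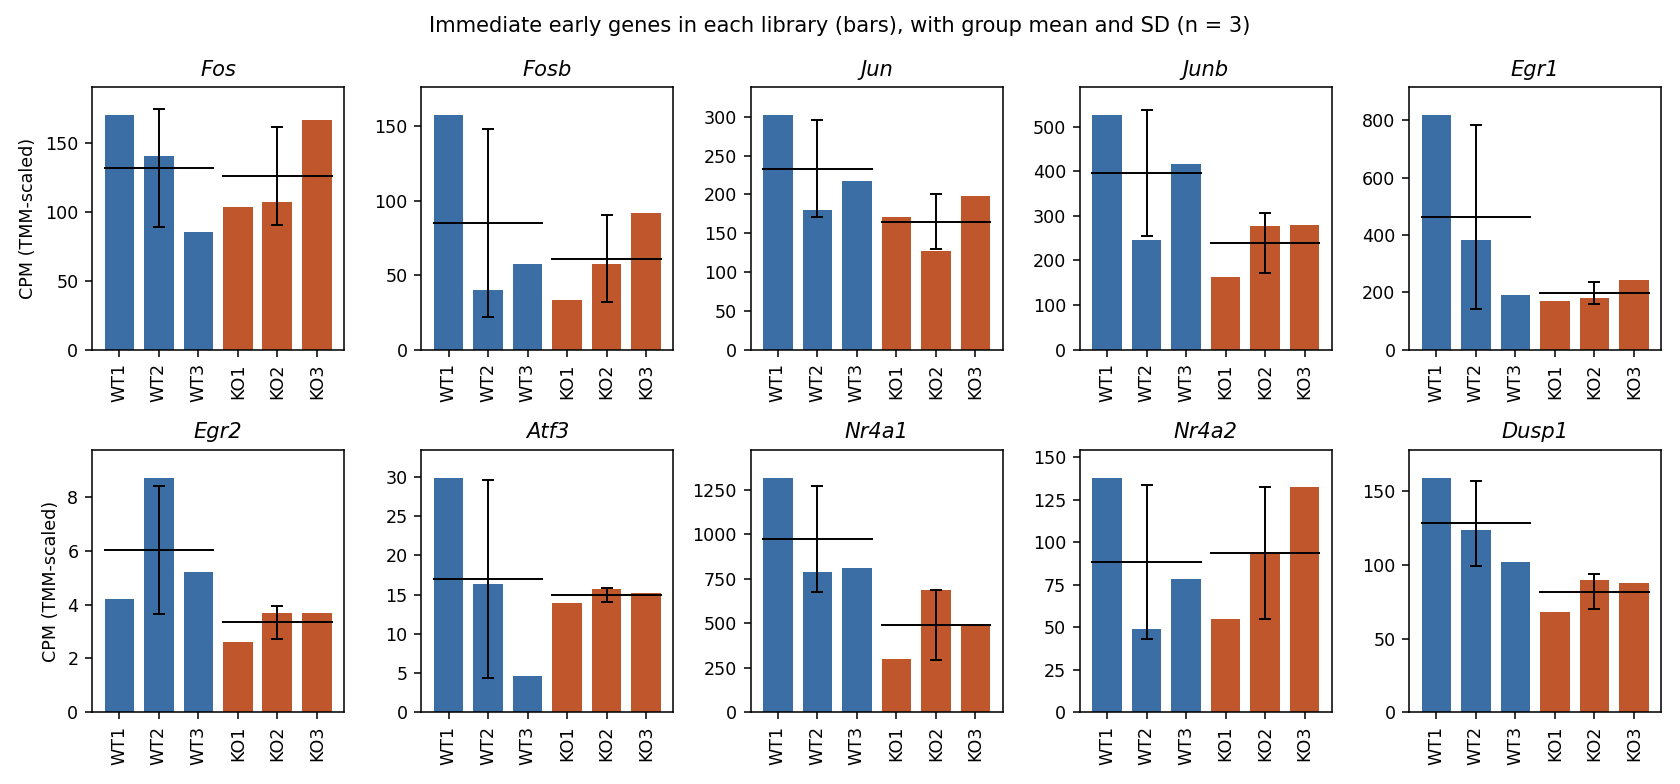
Level of each immediate early gene in CPM (vertical axes, each from 0) in the 3 WT (blue) and 3 KO (orange) libraries, with the mean (line) and SD (bar) of each group, n = 3. In these TMM-scaled values WT replicate 1 is the highest bar for every gene but Egr2, and KO replicate 1 is the lowest of all bars for 6 genes.

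**Figure D2:**
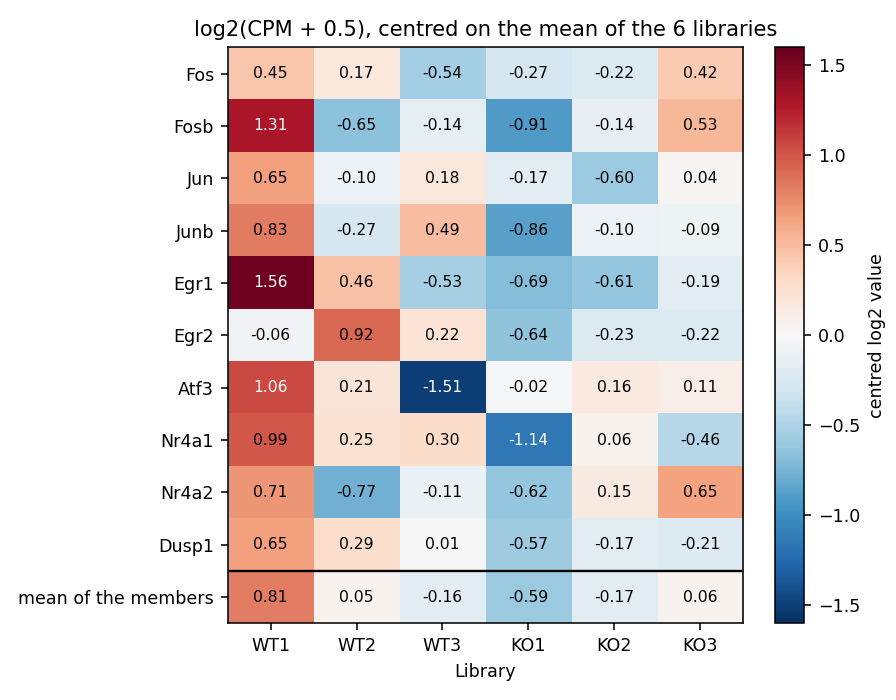
Value of log2(CPM + 0.5) in each library (columns) minus the mean of the 6 libraries, for each gene (rows) and for the mean of the 10 genes (bottom row). The bottom row runs from 0.81 in WT replicate 1 to -0.59 in KO replicate 1, and Atf3 has its lowest value, -1.51, in WT replicate 3.

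None of the 10 genes passed the test between genotypes, against 1.84% of the 21358 loci tested, 1.41% higher and 0.431% lower in KO (edgeR quasi-likelihood test, Benjamini-Hochberg adjusted p under 0.05). Their adjusted p ran from 0.13 to 0.937, and 4 had an unadjusted p under 0.05, all lower in KO (22.2% of all loci, 9.73% lower and 12.5% higher). DESeq2 called 2, Nr4a1 and Dusp1, as lower in KO (12.4% of loci by DESeq2, 4.88% lower). The log2 fold change was negative for 9 of the 10, Nr4a2 being the exception, as for 50.7% of loci, with a median of -0.57 against -0.0063 for all tested loci. Without WT replicate 1 the median was -0.37 with 6 of 10 negative, and without both libraries numbered 1 it was -0.27 with the same number negative. In 3 genes, Nr4a1, Dusp1 and Egr2, every KO library lay below every WT library, which 14.2% of tested loci showed (30.5% were apart in either direction, 16.3% with KO above). This separation depended on the scaling: scaled to total counts it held for none of the 10 (3.08% of loci), and with equal counts of Rn7sk, the 7SK RNA, for Nr4a1 only (2.74% of loci). Those scalings took the median log2 fold change of all loci to 0.22 and 0.19, and the median of the 10 genes to -0.33 and -0.35.

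Nr4a1, the orphan receptor also called NUR77, had the highest mean CPM of the 10 in both groups. Its locus is chr15:101254269-101274795 on the plus strand (GRCm38). It stood at 1316, 786 and 812 CPM in WT replicates 1 to 3 and at 299, 689 and 482 CPM in KO. The lowest WT value was above the highest KO value, with KO replicate 2 the closest to WT. The group means were 971 ± 299 and 490.0 ± 195 CPM (SD, n = 3 each). The fitted log2 difference was -0.99 (SE 0.35, edgeR adjusted p = 0.175, and 0.0421 by DESeq2). The fitted value ranged from -1.32 to -0.45 over all the alternatives run, among them -0.71 without WT replicate 1 and -0.73 without KO replicate 1.

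Its close relative Nr4a2 (NURR1) had no settled direction. Nr4a2 was at 138, 49.2 and 78.2 CPM in WT and at 54.6, 93.5 and 132 CPM in KO, so that the groups shared the same range. Its log2 fold change was 0.08 (SE 0.45, edgeR adjusted p = 0.937) and turned negative in 3 of the 6 fits that each left out 1 library (WT replicates 2 and 3, and KO replicate 3). The third receptor of the family, Nr4a3 (NOR1), is no member; it was at 355, 163 and 210.3 CPM in WT and at 199.8, 349 and 384 CPM in KO, again with overlap (log2 fold change 0.36, SE 0.36, edgeR adjusted p = 0.592). No difference between the 3 receptors' fold changes was tested.

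Dusp1 encodes a phosphatase that switches off MAP kinases and is itself induced by the pathway it ends. It had the least spread within groups and the smallest adjusted p of the 10. Its locus, chr17:26505590-26562128 on the minus strand, overlaps the start of Ergic1 on the other strand. Its values were 159, 124 and 102 CPM in WT and 68.1, 89.9 and 87.4 CPM in KO, with no overlap. The means of 128 ± 28.9 and 81.8 ± 11.9 CPM (SD, n = 3 each) stood 1.57-fold apart, and the fit gave -0.65 on the log2 scale (SE 0.19, edgeR adjusted p = 0.13, and 0.0357 by DESeq2). It stayed negative in all 17 alternatives, from -0.79 to -0.35.

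Egr1, a zinc finger factor of growth and stress responses, had the largest fitted difference, and 1 WT library carried much of it. Its values were 817, 382 and 191 CPM in WT and 171, 181 and 243 CPM in KO. WT replicate 3 lay inside the KO range, while the KO libraries stood close together. The fitted log2 difference was -1.23 (SE 0.50, edgeR adjusted p = 0.219) and -0.53 without WT replicate 1 (adjusted p = 0.402). The deposited locus of Egr1 runs past the end of the annotated gene and over Etf1 and Hspa9 on the other strand; the sources used here do not state whether reads were counted by strand.

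Egr2, a related factor known from Schwann cells, was the least abundant member and, with TMM scaling, the only 1 not highest in WT replicate 1. Its locus is chr10:67535475-67542188 on the plus strand. It was at 4.2, 8.71 and 5.2 CPM in WT and at 2.63, 3.68 and 3.7 CPM in KO, from 280 to 1125 counts a library. WT replicate 2 was the high library here, and the groups did not overlap. The log2 fold change was -0.86 (SE 0.31, edgeR adjusted p = 0.184) and -0.48 without WT replicate 2. Egr3, outside the 10, was at 1.81 to 8.12 CPM over all libraries with its highest value in WT replicate 1 (log2 fold change -0.48, SE 0.54, edgeR adjusted p = 0.639).

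None of the AP-1 genes passed the test, and the groups overlapped for each of them. Fos was at 169.8, 140.3 and 85.3 CPM in WT and at 104, 107 and 167 CPM in KO. WT replicate 1 and KO replicate 3 were both high, and the means of 132 ± 42.9 and 126 ± 35.5 CPM (SD, n = 3 each) differed by less than either SD (log2 fold change -0.07, SE 0.30, edgeR adjusted p = 0.917). Fosb, a relative whose truncated splice form is known to build up under repeated stimulation, varied more: 157, 40.0 and 57.1 CPM in WT and 33.4, 57.5 and 91.8 CPM in KO. WT replicate 1 was 3.92-fold above WT replicate 2, and without it the log2 fold change went from -0.48 (SE 0.58, edgeR adjusted p = 0.669) to 0.32.

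Jun was at 302, 179 and 217 CPM in WT and at 171, 127 and 197 CPM in KO. Only KO replicate 3 reached the WT range (log2 fold change -0.50, SE 0.24, edgeR adjusted p = 0.278), and without WT replicate 1 the value was -0.27. Junb, which often opposes Jun at shared sites, was at 526, 245 and 416 CPM in WT and at 162, 277 and 279 CPM in KO. WT replicate 2 lay within the KO range, and the log2 fold change was -0.72 (SE 0.33, edgeR adjusted p = 0.256). It was -0.47 without WT replicate 1 and -0.25 without both libraries numbered 1. The second Junb locus, of 4 to 23 counts a library, averaged 0.101 ± 0.0606 CPM over WT and 0.207 ± 0.0436 over KO (SD, n = 3 each). It entered none of the counts over the 10 genes.

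Atf3, a stress-induced factor of the same bZIP class, showed the widest spread of the 10. It stood at 29.9, 16.3 and 4.63 CPM in WT, a 6.46-fold range, and at 13.9, 15.8 and 15.2 CPM in KO, a 1.13-fold range. All KO libraries lay between the extremes of WT. Its fitted log2 difference, -0.18 (SE 0.58, edgeR adjusted p = 0.89), became 0.51 without WT replicate 1 and -0.63 without WT replicate 3.

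**Figure D3:**
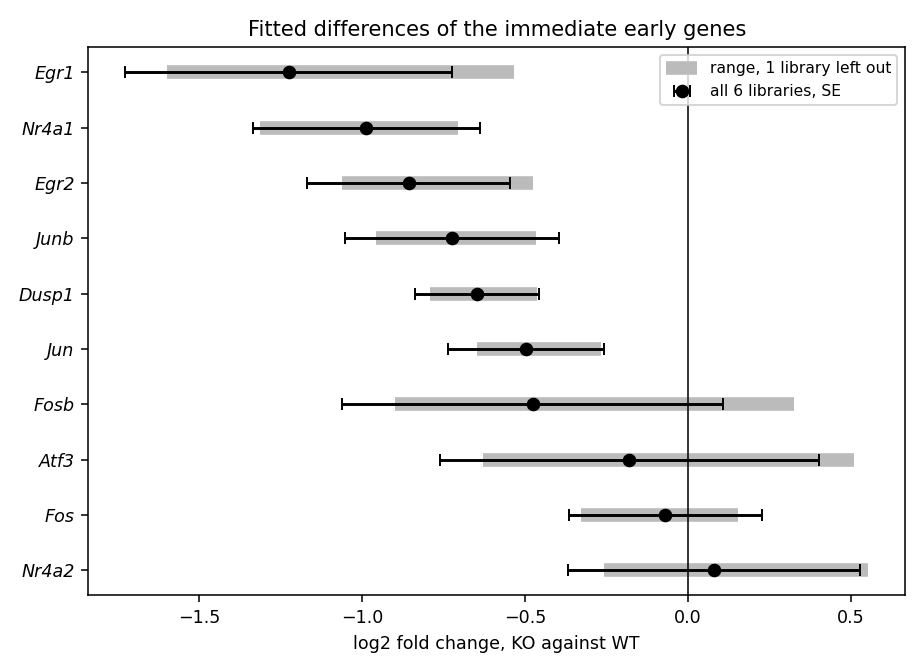
Fitted log2 fold change of KO against WT (horizontal axis) for each gene, with its SE (black), and the range of the 6 fits that each leave out 1 library (grey). Nr4a1, Dusp1, Egr1, Egr2, Jun and Junb keep negative values throughout the grey range, while those of Fos, Fosb, Atf3 and Nr4a2 cross 0.

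Relative to gene length, Junb was the most abundant, at 219 CPM per kb of gene model in WT and 132 in KO. In the order of the WT means, next came Nr4a1 (111 and 56.1 CPM per kb) and Egr1 (103 and 44.0), and then Jun (73.0 and 51.7), Fos (45.9 and 43.7) and Dusp1 (38.7 and 24.7). Fosb (11.5 and 8.28), Nr4a2 (10.97 and 11.6), Egr2 (1.78 and 0.981) and Atf3 (1.47 and 1.3) were the low end. In KO the order differed, with Jun above Egr1, Nr4a2 above Fosb and Atf3 above Egr2. Neighbours in this order, such as Nr4a1 and Egr1, or Fosb and Nr4a2, lie closer together than the spread over libraries given above. The deposited models of Atf3, Nr4a1, Nr4a2 and Fosb are long (11519, 8730, 8061 and 7356 bp), which lowers their values on this scale.

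The immediate early genes varied between libraries of 1 genotype more than most genes did. The SD of log2(CPM + 0.5) within groups ranged from 0.275 for Dusp1 to 0.927 for Atf3, with a median of 0.513, against a median of 0.16 for the 9679 loci of at least 10 CPM. Each of the 10 exceeded at least 75% of those loci: Dusp1 76.7%, Jun 84.6%, Fosb 98.2% and Atf3 98.4% of them. The spread was larger in WT than in KO for 9 of the 10, Nr4a1 being the other, and for 64.7% of loci of at least 10 CPM. In Egr1 the SD was 1.05 in WT and 0.272 in KO, and in Atf3 1.31 and 0.089. Whether the spread differs between genotypes was not tested.

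**Figure D4:**
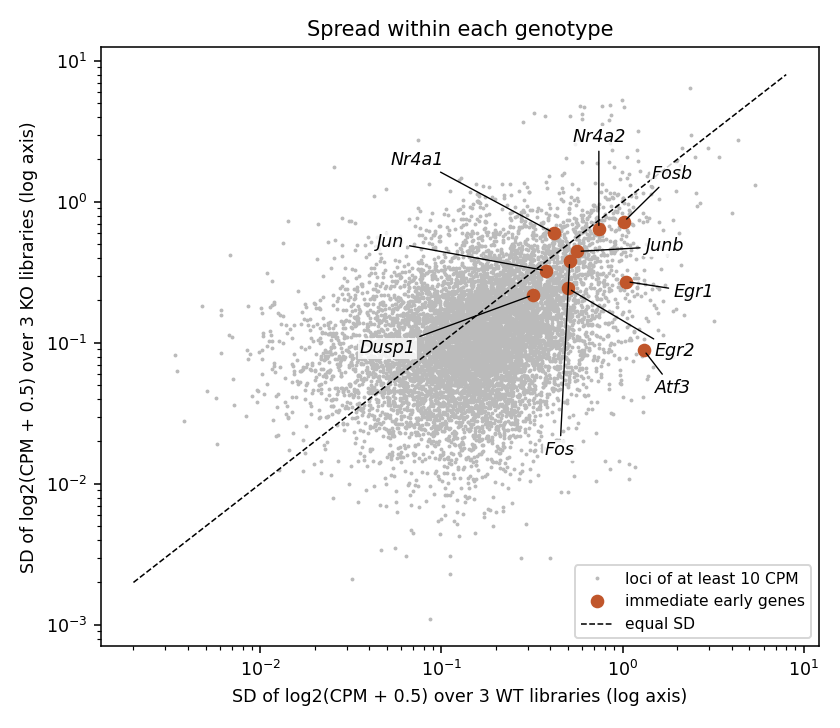
SD of log2(CPM + 0.5) over the 3 WT libraries (horizontal, log axis) and the 3 KO libraries (vertical, log axis), for the 10 genes (orange) and the 9679 loci of at least 10 CPM (grey). Of the 10 genes, Atf3 lies farthest right and lowest (SD 1.31 in WT and 0.089 in KO), and the others lie toward the upper right. All but Nr4a1 fall below the line of equal SD.

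The members also split by which of the other WT libraries came second. WT replicate 2 was above WT replicate 3 for Fos, Egr1, Egr2, Atf3 and Dusp1, and below it for Fosb, Jun, Junb, Nr4a1 and Nr4a2. Among KO libraries, replicate 3 was above replicate 1 for all 10 genes, by 2.75-fold in Fosb. With TMM scaling the highest library was thus shared by 9 of the 10, while the order of the other WT libraries was not.

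Promoters are shown for the 3 genes whose groups did not overlap and for Fos, whose groups did. They were searched close to the start for sites of kinds through which immediate early genes are known to take up their signal. RefSeq windows of GRCm38.p6 were found for 9 of the 10 genes, Egr1 being without one, and the 250 bases before each start site were searched on both strands. Capitals mark every match to TGACG (the core of the cAMP response element), TGACGTCA (the full element, which holds TGACG on each strand), the CArG box of serum response factor, TATAAA, or the EGR site GCGNGGGCG. Each run is read 5′ to 3′ on the strand of the gene. The Dusp1 run stops 48 bases before the RefSeq start, where an annotated exon begins.
Fos (chr12:85473640-85473889, plus strand): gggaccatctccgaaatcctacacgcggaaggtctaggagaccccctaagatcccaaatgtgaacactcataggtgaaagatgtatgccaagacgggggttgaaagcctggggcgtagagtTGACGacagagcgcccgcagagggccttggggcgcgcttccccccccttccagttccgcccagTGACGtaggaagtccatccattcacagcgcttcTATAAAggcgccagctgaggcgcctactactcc
Nr4a1 (chr15:101266596-101266845, plus strand): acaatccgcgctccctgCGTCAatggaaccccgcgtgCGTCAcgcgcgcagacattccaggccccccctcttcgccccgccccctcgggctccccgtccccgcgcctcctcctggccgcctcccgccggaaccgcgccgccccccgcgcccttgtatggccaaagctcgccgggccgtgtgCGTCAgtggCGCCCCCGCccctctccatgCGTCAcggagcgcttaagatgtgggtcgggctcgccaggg
Egr2 (chr10:67537619-67537868, plus strand): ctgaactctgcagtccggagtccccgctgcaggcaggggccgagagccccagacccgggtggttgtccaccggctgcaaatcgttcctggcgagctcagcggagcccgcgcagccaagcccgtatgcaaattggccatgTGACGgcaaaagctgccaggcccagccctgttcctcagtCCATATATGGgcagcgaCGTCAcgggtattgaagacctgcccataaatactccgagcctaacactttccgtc
Dusp1 (chr17:26508520-26508722, minus strand): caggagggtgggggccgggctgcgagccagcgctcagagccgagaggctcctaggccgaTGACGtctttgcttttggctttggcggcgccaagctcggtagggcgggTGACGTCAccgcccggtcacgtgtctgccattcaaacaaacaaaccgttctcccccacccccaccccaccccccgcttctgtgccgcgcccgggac

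TGACG was in the window of 8 of the 9 genes, all but Jun, and in at least 1 window of 19.8% of all genes (17.8% of all 32851 windows). The shares that follow are of genes, counted in the same way. Nr4a1 has 4 matches, at 233, 213, 69 and 40 bases before the start, and Fos has 2, at 129 and 66, with TATAAA at 33. The full element TGACGTCA was found in Dusp1 alone, 143 bases before its start, against 1.77% of genes. Within the 250 bases searched, the CArG box was found in Egr2 alone, 72 bases before the start that the printed window leads up to, against 1.62% of genes. Egr2 has 5 windows in the table, 4 of which hold such a box. Sites further upstream were not searched and Egr1 had no window, so a gene without a match here may still have such a site. The EGR site was in Fosb, Nr4a1 and Nr4a2 (5.33% of genes), and the AP-1 site TGANTCA in none of the 9 (7.82%). Of the 4 genes printed, all have TGACG, whether their groups overlapped or not. These are matches of letters and say nothing of what was bound in these glands.

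Of 36 other immediate early genes on a list, edgeR called 3, all lower in KO, against 0.431% of all loci called lower. Rhob, a small GTPase of actin and vesicle traffic, fell from 297, 273 and 294 CPM in WT to 149, 155 and 164 CPM in KO (log2 fold change -0.89, SE 0.09, edgeR adjusted p = 0.0161). Klf6, a zinc finger factor, fell from 121, 115 and 115 CPM to 71.8, 69.5 and 85.0 CPM (-0.63, SE 0.10, edgeR adjusted p = 0.0443). Sgk1, a kinase induced by corticosteroids, fell from 173, 159 and 152 CPM to 97.0, 114 and 108 CPM (-0.60, SE 0.10, edgeR adjusted p = 0.0465). These 3 genes had SDs within groups of 0.0685 to 0.114, against a median of 0.42 for the list of 36. Genes of small spread are called more readily, so the small SDs go with being called and are no trait of the list. WT replicate 1, though the highest library in all 3, lies close to the other WT libraries. Scaled to total counts, or to Rn7sk, Rhob stayed called (edgeR adjusted p = 0.0236 and 0.0452), while Klf6 (0.0833 and 0.194) and Sgk1 (0.101 and 0.121) did not. When 1 library was left out, Rhob was called in 2 of the 6 fits (edgeR adjusted p from 0.0209 to 0.104) and Klf6 (0.0624 to 0.185) and Sgk1 (0.0633 to 0.185) in none.

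The other 33 genes of that list were not called by edgeR, while DESeq2 called 8 of the 36, 7 of them lower (12.4% and 4.88% of loci). In all, 24 of the 36 had a negative log2 fold change (50.7% of loci), and the median was -0.26. An unadjusted p under 0.05 was found for 11, 10 of them lower (22.2% and 9.73% of loci). Looked at after its values were seen, Maff, a small MAF factor, was at 18.3, 9.16 and 17.7 CPM in WT and at 2.93, 5.29 and 3.83 CPM in KO (log2 fold change -1.91, SE 0.34, edgeR adjusted p = 0.0532, and 2.78e-06 by DESeq2). Arc and Homer1, genes of synaptic activity also looked at after their values were seen, had positive values and no overlap between groups. They were the only 2 of the 36 with every KO library above every WT library (16.3% of loci). For 6 of the 36, every KO library was below every WT library (14.2% of loci). Both tallies use TMM scaling only. Arc was at 6.13, 1.39 and 0.91 CPM in WT and at 7.55, 8.11 and 9.89 CPM in KO (log2 fold change 1.597, SE 0.70, edgeR adjusted p = 0.244, and 0.085 by DESeq2). Homer1, whose locus also holds Gm47075 and Gm47088, stood at 0.96 on the log2 fold scale (SE 0.31, edgeR adjusted p = 0.15, and 0.0341 by DESeq2).

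Among 17 other genes of the bZIP class of Fos and Jun, edgeR called none, 13 had negative log2 fold changes and the median was -0.28. An unadjusted p under 0.05 was found for 7, and DESeq2 called 6, all lower in KO (9.73% and 4.88% of loci). Mafk was at 32.5, 24.3 and 45.5 CPM in WT and at 14.3, 13.3 and 15.6 CPM in KO (edgeR adjusted p = 0.0564). Jund, the Jun gene that is expressed without a stimulus, was at 200.4, 144 and 163 CPM in WT and at 111, 115 and 112 CPM in KO (log2 fold change -0.59, SE 0.13, edgeR adjusted p = 0.0774). Fosl2 was at 681, 465 and 639 CPM in WT and at 385, 423 and 325 CPM in KO, more counts than Fos (log2 fold change -0.66, SE 0.18, edgeR adjusted p = 0.111). Every KO library was below every WT library in 7 of the 17, among them these 3 and Atf1 (14.2% of loci); this tally uses TMM scaling only. For Atf1 the fit gave -0.41 on the log2 fold scale (SE 0.09, edgeR adjusted p = 0.0744).

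Of 9 other MAP kinase phosphatases edgeR called none and 6 were negative. An unadjusted p under 0.05 was found for 3 (22.2% of loci), and DESeq2 called 3 (12.4% of loci). Dusp10 (log2 fold change -0.65, SE 0.15) and Dusp4 (-0.77, SE 0.21) had negative values and Dusp9 a positive 1 (1.42, SE 0.33, from a mean of 0.474 CPM in WT to 1.28 CPM), with edgeR adjusted p from 0.076 to 0.111. Of 25 upstream kinases and transcription factors edgeR called none, and the median log2 fold change was -0.16. An unadjusted p under 0.05 was found for 5 (22.2% of loci), and DESeq2 called 4 (12.4% of loci). Mrtfa, a partner of serum response factor, had -0.47 (SE 0.11), the kinase gene Mapk3 -0.25 (SE 0.07) and Rps6ka5, a kinase of CREB and histone H3, 0.46 (SE 0.14). The locus of Mrtfa also holds a model with no gene name, and that of Rps6ka5 also Gm49703. The 3 loci had edgeR adjusted p from 0.0886 to 0.128. Of 7 partners and corepressors of EGR and NR4A factors none was called by edgeR, at an unadjusted p under 0.05 or by DESeq2, with log2 fold changes of -0.24 for Rxra, 0.17 for Nab2 and -0.11 for Ncor1, the last of which turned positive when scaled to total counts or Rn7sk.

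**Figure D5:**
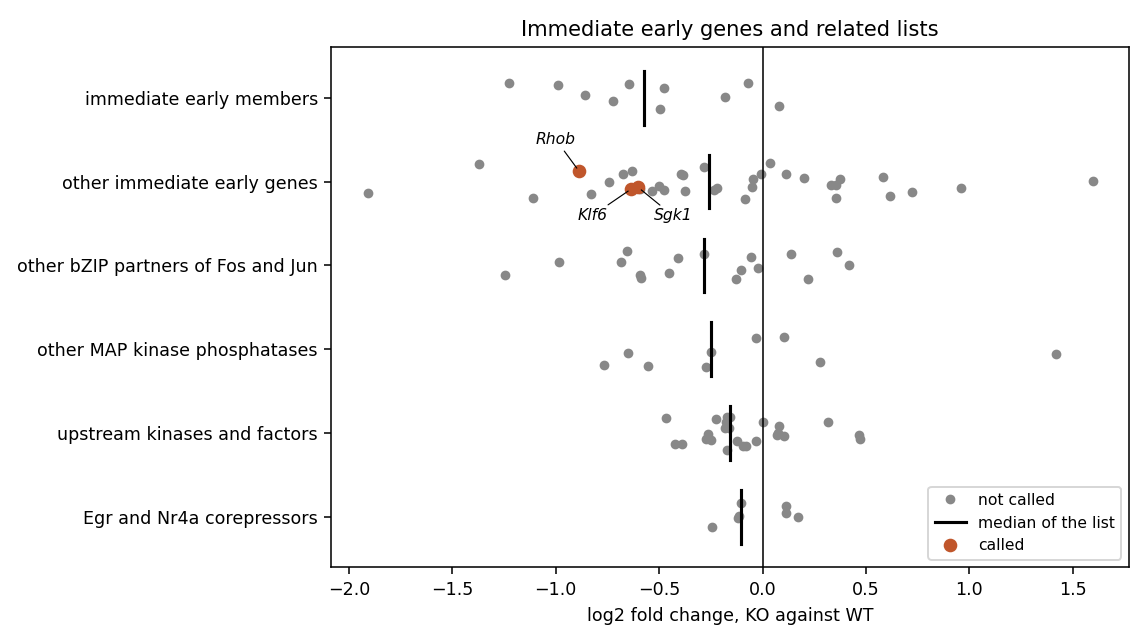
Fitted log2 fold change of KO against WT (horizontal axis) of each tested gene in the 6 lists (rows), with the list's median (black line) and the genes called by edgeR at an adjusted p under 0.05 (orange). The 3 called genes, Rhob, Klf6 and Sgk1, lie between -0.89 and -0.60, and the median of the 10 immediate early genes is -0.57.

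Markers of cell types also differed between libraries. The 9 cortex loci summed to 71634, 42109 and 54285 CPM in WT replicates 1 to 3 and to 38451, 32516 and 36197 CPM in KO. WT replicate 1 was thus highest there too. KO replicate 1, the lowest KO library for 9 of the 10 genes, had the highest cortex sum of KO. Star, which carries cholesterol into mitochondria, was at 17583, 8512 and 12845 CPM in WT and at 6827, 4922 and 6445 CPM in KO (edgeR adjusted p = 0.103, and 0.00352 by DESeq2). Of the cortex loci edgeR called none and DESeq2 called 2, both lower (4.88% of all loci). The 10 chromaffin markers summed to 1952 to 2776 CPM in WT and 3985 to 4395 CPM in KO. Of these, edgeR called 4 higher (Chga, Dbh, Hand2 and Phox2a, adjusted p from 0.044 to 0.0489), against 1.41% of all loci. DESeq2 called 9, all higher, against 12.4% of all loci in either direction. In bulk tissue, fewer cells of a type and less RNA per cell cannot be told apart, and the part of the cell mixture in the values of the 10 genes was not tested.

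The other marker sums were 898 to 1089 CPM in WT and 701 to 859.9 CPM in KO for endothelial cells. All 10 of these markers were negative (50.7% of all loci), with none called by edgeR and 5 by DESeq2, all lower (4.88% of all loci). Cdh5 had a log2 fold change of -0.39. Macrophage sums were 255 to 1104 CPM in WT and 217 to 252 CPM in KO. There 8 of 10 were negative, with none called by edgeR and 2 by DESeq2 (12.4% of all loci), only 1 of them lower. The lysozyme locus Lyz2/Lyz1 varied most there, at 86.8, 670.4 and 453 CPM in WT and 43.4 to 54.2 CPM in KO (log2 fold change -3.07, edgeR adjusted p = 0.0776, and 6.86e-06 by DESeq2). Sums were 409 to 575 and 343 to 468 CPM for capsule and stroma (8 of 10 negative, Acta2 log2 fold change -1.26), 508 to 856 and 137 to 384 CPM for red blood cells (3 of 3 loci negative, Hba-a1/Hba-a2 log2 fold change -1.33) and 154 to 231 and 123 to 168 CPM for fat cells (5 of 6 negative, Ucp1 log2 fold change -4.68). Neutrophil markers were near 0, at 1.98 to 15.5 and 2.70 to 3.82 CPM, with 4 of 10 not tested for low counts (S100a9, Ly6g, Retnlg and Camp). Of the 6 tested, 4 were negative, with a median log2 fold change of -0.76. Ngp, the marker of smallest p, went the other way at 1.78, with a mean of 0.0632 CPM in WT and 0.221 CPM in KO. Of these lists edgeR called no gene, and DESeq2 called 1 of capsule and stroma, 2 of red blood cells and 1 of fat cells, all lower (4.88% of all loci), and none of neutrophils. WT replicate 1, the highest library for most immediate early genes, had the lowest endothelial, macrophage and neutrophil sums of WT and the highest erythroid sum. The part of these cells was not tested.

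Genes whose pattern lay nearest to the mean pattern of the 10 were sought among 8412 single-gene loci of at least 10 CPM, by the mean absolute difference of centred log2(CPM + 0.5) over the 6 libraries. The nearest were Igfbp6 (0.0689), an IGF binding protein, and Mc2r (0.0823), the ACTH receptor, which is also on the list of cortex markers. Mc2r was at 328, 177 and 157 CPM in WT and at 136, 151 and 178 CPM in KO. It has WT replicate 1 as its highest and KO replicate 1 as its lowest library and was not called (log2 fold change -0.51, edgeR adjusted p = 0.352). Next came Apex1 (0.102), Nat8f1 (0.116), Gsg1l (0.13), Rtkn (0.132), Snapin (0.133) and Pls3 (0.133). The members themselves lay between 0.145 (Dusp1) and 0.448 (Atf3) from their own mean.

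Ratios of raw counts between 2 members in 1 library need no scaling. Of the 45 pairs of members, 7 had ratios with no overlap between genotypes, which is 15.6%, against 29.4% of all pairs of loci of at least 10 CPM. The pairs named next were chosen after their values were seen. The count of Nr4a1 over that of Nr4a2 was 9.54, 16.0 and 10.4 in WT replicates 1 to 3 and 5.47, 7.37 and 3.64 in KO. Over Nr4a3, which is outside the 10, it was 3.70, 4.82 and 3.86 in WT and 1.495, 1.98 and 1.25 in KO, lower in every KO library for both relatives. The count of Egr1 over that of Atf3 was 27.3, 23.4 and 41.3 in WT and 12.3, 11.5 and 16.0 in KO, although each gene alone overlapped between genotypes. Fos over Egr1 was 0.208, 0.368 and 0.447 in WT and 0.607, 0.59 and 0.686 in KO. No test was made of these ratios.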

How the data were processed

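The authors deposited 1 table with raw counts per locus, log2 CPM and log2 values scaled to Rn7sk, per the file headers; gene model lengths in base pairs are in it too. Trimmomatic, STAR, Picard, StringTie and edgeR with GRCm38 are named, per the submitters' processing notes; tool versions and the counting program: not given in the sources used here. RNA was freed of rRNA and libraries kept strand, per the labels' protocols. The 6596 loci without a gene name (1.39% to 2.04% of counts) were left out. Deposited counts were filtered with filterByExpr, scaled with TMM and tested with edgeR 4.0.16 (glmQLFit robust, glmQLFTest, two-sided) in R 4.3.3, with Benjamini-Hochberg adjustment over 21358 loci; the SE is the log2 fold change divided by the square root of F. The code was tested on simulated data. CPM uses TMM-scaled libraries. Alternatives used DESeq2 1.42.0, limma 3.58.1 (on the deposited log2 CPM, or voom), other scalings and filters, the replicate block and left-out libraries. At over 70547288 counts a library, counting error is small beside library spread for the members. Named were the 10 members; in each other list all called genes or the 3 (markers: 1) of smallest p; Armc5; and the 8 nearest patterns. Nr4a3, Egr3, Fosl2, Maff, Arc and Homer1 were added after their values were seen. Members and lists were chosen with earlier results of these data known. Gene annotation was GENCODE M21; 7 of the 10 main loci have its exact ends.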

Additional observations from a re-analysis of the deposited data

How the results depend on the processing

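The number of loci called was 393 and became 674 with total counts alone, 711 with equal Rn7sk counts, 2626 by DESeq2, 975 by limma-trend on the deposited log2 CPM, 1527 by limma-voom with quality weights, 16 without WT replicate 1 and KO replicate 3 and, by edgeR, 0 without both libraries numbered 1 (3469 loci at an unadjusted p under 0.05), which differ from the others in part of their sample codes. Leaving out 1 library gave 15 to 644. With the replicate number as a block, 5 loci were called, but same-numbered samples did not deviate together (correlations of -0.05, 0.02 and -0.12 for numbers 1 to 3), and not every sample correlated best with its own number. Of the 10 genes, 2 were called by DESeq2 and none in the other 16 alternatives; 6 to 10 were lower in KO. Signs turned in 22 of 169 values of the 10 genes, and the cause was not tested. Fos became 0.16 (total counts), 0.17 (Rn7sk), 0.0045 (at least 10 CPM), 0.28 (without both numbered 1), 0.18 (limma-trend) and 0.19 (limma-voom), and ranged from -0.33 to 0.15 with 1 library left out. Atf3 became 0.0685 (total counts), 0.0601 (Rn7sk), 0.16 (block), 0.56 (without both numbered 1), 0.50 (without WT replicate 1 and KO replicate 3), 0.41 (limma-trend) and 0.76 (limma-voom), and ranged from -0.63 to 0.51. Fosb became 0.62 without both numbered 1 and ranged from -0.90 to 0.32; Nr4a2 ranged from -0.26 to 0.55. Egr3 became 0.51 without both numbered 1 and ranged from -0.85 to 0.21. Ncor1 became 0.12, 0.0895 and 0.11 (total counts, Rn7sk, limma-trend). Egr2 did not pass the filter of 10 CPM.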
